A study of Mus musculus with 6 samples.

Results

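The genes described here are 43 listed genes of the actin cytoskeleton and of cell migration, chosen by name among the 41388 genes of the count tables, and all 43 were found by their Ensembl identifiers. They encode actin, proteins that bind its monomers, the Arp2/3 complex and its activators, factors that elongate, cap, cut, bundle or take apart filaments, myosin II, and small GTPases with their exchange factors. The data are bulk RNA-seq of bone marrow neutrophils from C57BL/6 mice, in 6 libraries of 20000 sorted cells each. All cells carried 250 nM DIBAC4(3), a dye whose fluorescence follows the membrane potential, and all had received 100 nM ionomycin, a calcium ionophore. Cells were collected between 2 and 4 minutes later as a depolarized population (3 libraries) and a polarized population (3 libraries). Each depolarized library shares a code with a polarized one, and the letters A, B and C stand for these biological pairs, by rising code. A run label of the libraries is 1 for depolarized B and 2 for all others. Its meaning is not stated, and it was not used. Here "polarized" refers to the voltage across the membrane and not to the shape of a migrating cell, and no unstimulated sample was analysed here. The sources used here give no age, sex or number of mice per library.

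Neutrophils crawl by pushing the leading edge forward with branched actin filaments and by contracting the rear with myosin II. Monomeric actin is held in reserve by thymosins and handed to growing ends by profilin. The Arp2/3 complex, switched on by WASP and WAVE proteins, starts new branches, while cofilin, coronin and Aip1 (Wdr1) dismantle old ones. Small GTPases such as Cdc42 direct where each of these acts.

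Several members have near copies within the list, and how alike the copies are can bear on how reads were assigned. The first 135 coding bases of 3 such pairs are shown, from GENCODE M21 transcripts (GRCm38). They run 5′ to 3′ from the start codon, with capitals where the 2 copies differ. The actin genes Actb and Actg1 differ at 24 of these positions.
Actb: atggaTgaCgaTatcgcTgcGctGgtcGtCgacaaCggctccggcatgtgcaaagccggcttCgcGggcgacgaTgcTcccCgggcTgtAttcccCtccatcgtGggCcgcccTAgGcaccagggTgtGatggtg
Actg1: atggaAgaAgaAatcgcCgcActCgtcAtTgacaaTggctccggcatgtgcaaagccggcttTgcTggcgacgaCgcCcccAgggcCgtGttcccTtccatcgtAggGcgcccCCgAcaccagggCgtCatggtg
The thymosin genes Tmsb4x and Tmsb10 differ at 40, over what is their whole coding sequence.
Tmsb4x: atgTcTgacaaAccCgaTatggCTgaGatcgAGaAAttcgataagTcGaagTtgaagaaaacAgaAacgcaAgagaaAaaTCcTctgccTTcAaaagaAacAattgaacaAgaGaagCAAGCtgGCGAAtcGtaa
Tmsb10: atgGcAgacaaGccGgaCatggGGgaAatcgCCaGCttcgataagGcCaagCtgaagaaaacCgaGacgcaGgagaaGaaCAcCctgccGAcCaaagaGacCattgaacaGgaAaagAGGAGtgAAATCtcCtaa
The myosin light chain genes Myl12a and Myl12b, neighbours on chromosome 17, differ at 5.
Myl12a: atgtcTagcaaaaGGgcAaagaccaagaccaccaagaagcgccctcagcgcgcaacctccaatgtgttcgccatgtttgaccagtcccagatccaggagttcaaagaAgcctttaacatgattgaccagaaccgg
Myl12b: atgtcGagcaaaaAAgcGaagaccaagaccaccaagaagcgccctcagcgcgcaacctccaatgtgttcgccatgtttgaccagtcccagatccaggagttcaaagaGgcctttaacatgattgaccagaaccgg
Over the full coding length the identity was 88.7% for the actins, 70.4% for the thymosins, 96.5% for the light chains and 76.9% for the capping protein genes Capza1 and Capza2. The longest run without a difference was 62 bases in the actins and 105 in the light chains.

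Sequence shared with any other gene was counted next. For each member, the share of all stretches of 50 bases in its longest transcript that also occur in a transcript of another gene was counted. It was 0 for 17 of the 43 and above 20% for 8. Those were Capza1 (77.4%), Actg1 (56.7%), Actr3 (49.8%), Tmsb10 (43.5%), Arpc1b (42.2%), Myl12b (33.0%), Myl12a (29.6%) and Cfl1 (23.0%). The gene sharing most was Gm3608 for Capza1 (73.3%), Gm12715 for Actg1 (51.1%), Gm8822 for Actr3 (48.3%) and Gm9844 for Tmsb10 (33.2%). It was Pdap1 for Arpc1b (28.9%) and Snx32 for Cfl1 (16.2%). For Myl12b (33.0%) and Myl12a (29.2%) it was a second entry named Myl12b, which was not among the counted genes. Counted genes also shared stretches with both. Levels of these 8 genes are uncertain, because the sources used here do not say how reads that match several places were treated. Exons of another gene covered over 10% of the exon length of Arpc1b (18.2%, Pdap1 on the opposite strand), Cfl1 (16.5%, Snx32 on the opposite strand) and Arpc4 (12.2%, Ttll3 on the same strand). The same held for the light chain genes Myl12a (19.9%) and Myl12b (26.7%). Their largest overlaps, 13.8% and 26.7%, were with an uncounted entry named Myl12b on the same strand. The sources do not give the strand setting of the counting either. Both measures used GENCODE M21 models, which for some genes are longer than the listed gene length. Exon bases were 2844 for Cfl1 and 2770 for Myl12b, against listed lengths of 1148 and 1711. Whether the shared and overlapped bases lie in the counted part was not tested.

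Serum response factor is known to drive many actin genes through a short AT-rich motif, the CArG box, so promoters were searched for it on both strands, from 250 bases before to 50 after each start in the RefSeq promoter table (build GRCm38.p6). The table matched 39 of the 43 genes, and Actb, Diaph1, Dock5 and Lsp1 had no entry. A CArG box was present in 3 of 39 (7.69%), against 1.81% of 27025 genes. The TATA box, searched as TATAAA, was in 3 of 39 (7.69%; Cdc42, Myh9 and Rhoa) against 15.7%, and no member held both, though a CArG box can itself contain these letters. The CArG matches lay 90 bases before the start of Actg1, 50 before Myl6 and 250 before Arpc4. The 250 bases before the start are shown for the first 2, where the box (capitals) is nearest to the start, at chr11:120348496-120348745 and chr10:128493010-128493259, both on the minus strand. Starts are those of RefSeq, which lie 47 bases downstream of the start of the counted gene for Actg1 and 866 for Myl6, so the Myl6 stretch lies inside the counted gene.
Actg1: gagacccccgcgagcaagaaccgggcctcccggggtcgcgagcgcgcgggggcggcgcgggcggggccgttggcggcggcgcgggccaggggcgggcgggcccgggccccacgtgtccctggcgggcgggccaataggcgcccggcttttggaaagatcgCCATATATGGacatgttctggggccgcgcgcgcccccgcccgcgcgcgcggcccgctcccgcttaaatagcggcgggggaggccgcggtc
Myl6: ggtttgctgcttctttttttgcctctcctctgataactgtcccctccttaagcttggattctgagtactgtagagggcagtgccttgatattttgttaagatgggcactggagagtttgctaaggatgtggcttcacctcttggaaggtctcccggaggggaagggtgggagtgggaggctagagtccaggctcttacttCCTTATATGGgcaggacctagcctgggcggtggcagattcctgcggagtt
A match describes these letters and not a site in use.

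Each library held 16904969 to 20381489 counts. The 10 most abundant genes took 31.3% to 35.3% of them, with Actb ranked first in 5 libraries and second in the polarized library of pair C. Summed levels of marker lists are given in CPM, counts scaled to library size. Mature neutrophil markers (10 genes) summed to 63813 to 76331 CPM in polarized and 58708 to 64663 CPM in depolarized libraries. Most of that sum was Retnlg, which like Mmp8 was lower in the depolarized library of every pair. Csf3r, Il1b, Cd101 and Wfdc17 were higher in every pair, the first of them at 1680, 1496 and 1518 CPM in polarized and 2265, 2403 and 2191 CPM in depolarized A, B and C. Mmp9, Cxcr2, Ly6g and Ccl6 changed direction between pairs. Early neutrophil markers (11 genes) summed to 12112 to 23298 and 4767 to 11927 CPM and all 11 were lower in the depolarized library of 3 of 3 pairs. Monocyte and macrophage markers (12 genes) summed to 208 to 235 and 272 to 318 CPM, and the sum was higher in the depolarized library of 3 of 3 pairs with no overlap. That sum was carried by Csf1r (112, 102 and 105 CPM in polarized and 168, 166 and 157 CPM in depolarized A, B and C) and Adgre1 (103, 59.1 and 72.9 CPM in polarized and 129.8, 103 and 106 CPM in depolarized A, B and C). Only 3 of the 12 markers were higher in every pair (Csf1r, Adgre1 and Cx3cr1), and 5 were lower in every pair (Ccr2, C1qa, C1qb, C1qc and Irf8), all at low levels. Low sums were found for platelets and megakaryocytes (22.8 to 39.2 and 26.6 to 34.3 CPM, 10 genes), T and NK cells (23.3 to 28.8 and 16.7 to 23.1, 8 genes) and erythroid cells (39.9 to 63.1 and 26.9 to 96.4, 8 genes). Eosinophil and basophil markers (8 genes) summed to 50.5 to 464 and 58.3 to 194 CPM, with the highest sum in polarized B. Most of that was Prg2, at 22.0, 389 and 149 CPM in polarized and 36.6, 136 and 18.3 CPM in depolarized A, B and C. B and plasma cell markers (9 genes) summed to 534 to 626 and 482 to 1227 CPM and stroma and endothelium (8 genes, with Cdh5 at 0) to 182 to 431 and 197 to 379.9 CPM. Nearly all of the stroma and endothelium sum was Acta2 (264, 171 and 424 CPM in polarized and 309, 186 and 371 CPM in depolarized A, B and C). The next highest gene of that list, Pecam1, reached 9.17 CPM. Actin genes are broadly expressed, and the part that other cells had in the values below was not tested.

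The 43 genes made up 11.8% to 16.8% of all counts, and most of that was Actb, which encodes beta-actin. In polarized A, B and C the whole list held 16.8%, 15.3% and 11.8% of counts, and in depolarized A, B and C 15.5%, 15.6% and 15.9%. The means were 14.6 ± 2.59% and 15.7 ± 0.205% (SD, n = 3 each). The groups overlapped, and the polarized library of pair C lay below the other 5. Actb alone took 11.4%, 10.2% and 6.01% of polarized and 9.65%, 10.1% and 10.4% of depolarized counts. The other 42 genes summed to 5.42%, 5.09% and 5.75% in polarized and 5.87%, 5.41% and 5.51% in depolarized libraries, where polarized C was the second highest. Within pairs A, B and C the share of the whole list changed by -1.27, 0.229 and 4.13 percentage points from polarized to depolarized, so pair C had the largest change and pair A the opposite sign. In bulk RNA, fewer cells of a type and less of a transcript per cell cannot be told apart.

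**Figure D1:**
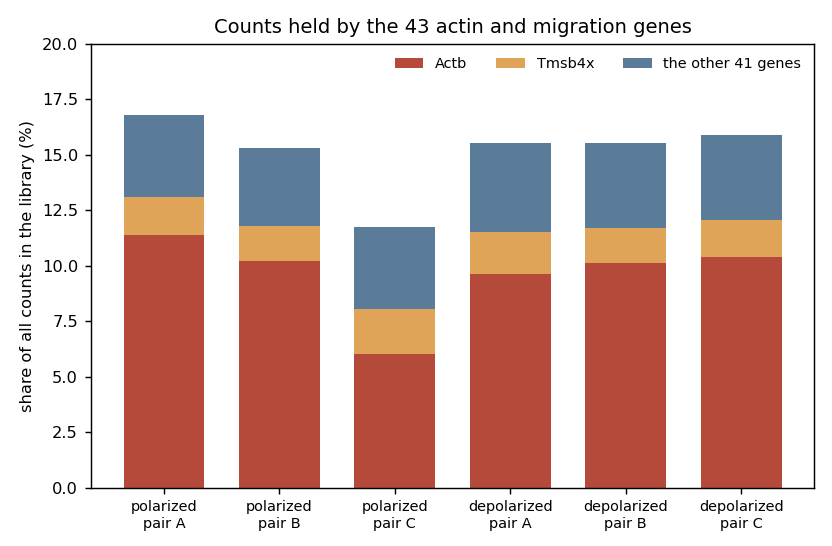
Share of all counts (y axis, %) held by Actb, Tmsb4x and the other 41 genes in each of the 6 libraries (x axis), as stacked bars from 0. The Actb part is 6.01% in polarized C and between 9.65% and 11.4% in the other 5 libraries.

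None of these genes was called different between depolarized and polarized neutrophils in the test across all genes, which does not show that their levels were equal. Differences below are log2 fold changes, depolarized minus polarized, from edgeR's quasi-likelihood test with the pair as a block and TMM scaling, which evens out library composition. Of 42 members that passed the low-count filter, 0 were called higher and 0 lower at an adjusted p under 0.05, where 0.0802% of 9971 genes were called higher and 0.241% lower. At an unadjusted p under 0.05 there were 2 members (Capg and Msn), or 4.76%, against 6.58% of all genes. DESeq2 with the same block called 0 members, with 2 at an unadjusted p under 0.05, where it called 0.16% of genes higher and 0.231% lower. With the GC trend removed, an alternative chosen after seeing the data, 0 members were called beside 0.0301% and 0.17% of genes. The fitted differences ran from -0.50 for Tmsb10 to 0.40 for Msn, with a median of -0.062 beside -0.0022 over all genes tested, and 17 lay above and 25 below 0. Approximate 95% intervals, built from the standard error, stayed within 1.5-fold in either direction for 33 of the 42 and within 2-fold for 41, the exception being Tmsb10. The wider intervals were those of Actg1, Tmsb10, Pfn1, Was, Vasp, Capg, Lcp1, Msn and Dock2. Evl, which encodes an elongation factor of the VASP family, had 11 counts over the 6 libraries and was not tested.

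**Figure D2:**
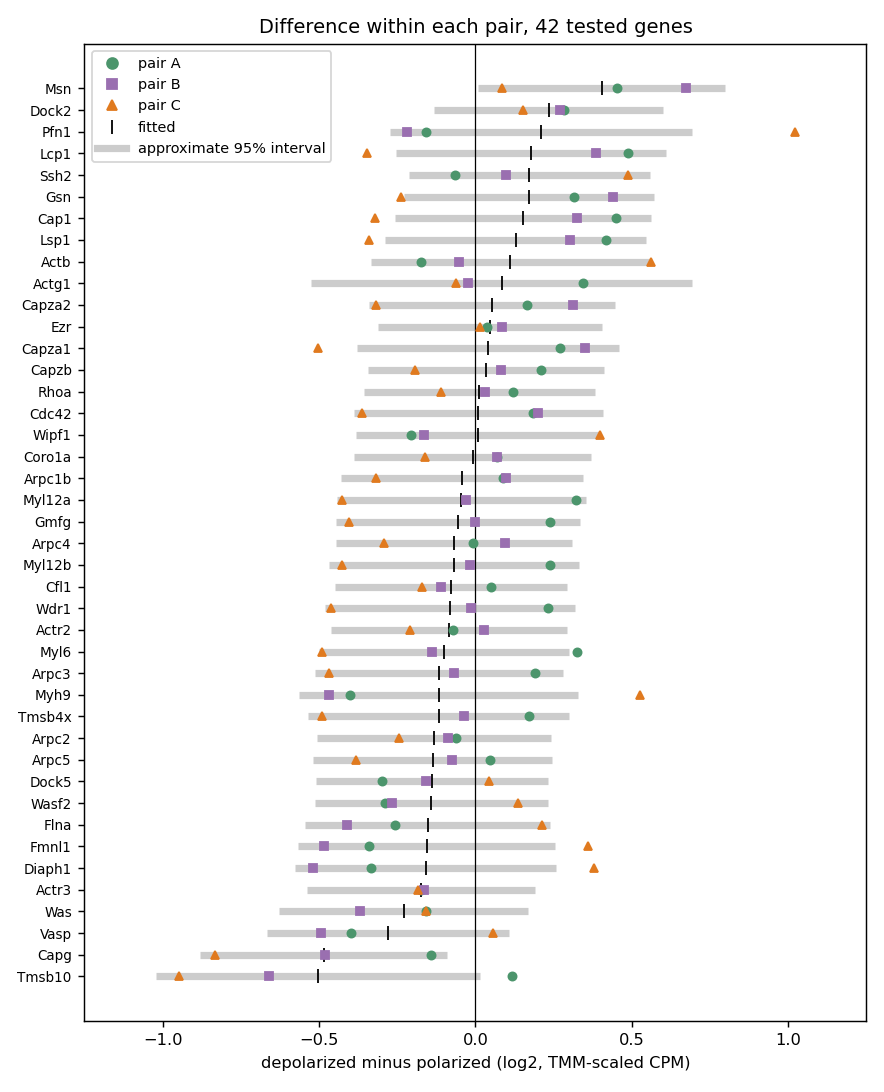
Difference between the depolarized and polarized library of each pair (x axis, log2 of TMM-scaled CPM) for the 42 tested genes (y axis), sorted by fitted difference, with pair A as circles, pair B as squares and pair C as triangles. The black tick is the fitted value and the grey bar its approximate 95% interval, which includes 0 for all but Capg and Msn, and pair C often lies on the other side of 0 from pairs A and B.

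The 2 actins stood 21659-fold apart. Levels of different genes are compared in RPKM, CPM per kilobase of the listed gene length. Actb (ENSMUSG00000029580, chr5:142903115-142906754 in GRCm38) was at 42460.3, 38208 and 22451 RPKM in polarized A, B and C and at 36021, 37854 and 38748 RPKM in depolarized A, B and C. Polarized C was 1.89 times lower than polarized A, the highest, and the other 5 libraries held 9.65% to 11.4% of counts. The fitted difference was 0.11 with an interval of -0.33 to 0.55, and those within the pairs were -0.17, -0.052 and 0.56. Actg1 (chr11:120345690-120348542), gamma-actin, was chosen for full values after they were seen and had 493 counts over all 6 libraries, or 1.21, 1.92 and 1.61 RPKM in polarized A, B and C and at 1.48, 1.94 and 1.80 RPKM in depolarized A, B and C. The ratio of the 2 actins was between 13934 and 35176 in single libraries. Of the stretches of 50 bases in the Actg1 transcript, 43.3% occur in no other gene. How far dropped or reassigned reads enter the Actg1 level was not tested.

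Among proteins that bind actin monomers, thymosin beta 4 (Tmsb4x, on chromosome X), which holds monomers back from growing filaments, followed Actb as the fifth highest of all genes by mean RPKM. Tmsb4x was at 12708, 11352 and 14765 RPKM in polarized A, B and C and at 13697, 11382 and 12292 RPKM in depolarized A, B and C. The ranges overlapped, and its highest library was polarized C, where Actb was lowest. Its fitted difference was -0.12 (interval -0.54 to 0.30). Its relative Tmsb10 averaged 9.41 RPKM, 1349 times less. Profilin 1 (Pfn1), which feeds actin to growing ends, was named here after its values were seen: it was at 588, 736 and 314 RPKM in polarized A, B and C and at 504, 649 and 746 RPKM in depolarized A, B and C. Pfn1 had the widest gap between pairs of all 42 members, with log2 differences of -0.16, -0.22 and 1.02 (A, B, C), and polarized C was its lowest library. Cap1, which recycles actin monomers, averaged 222 RPKM with a difference of 0.15.

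**Figure D3:**
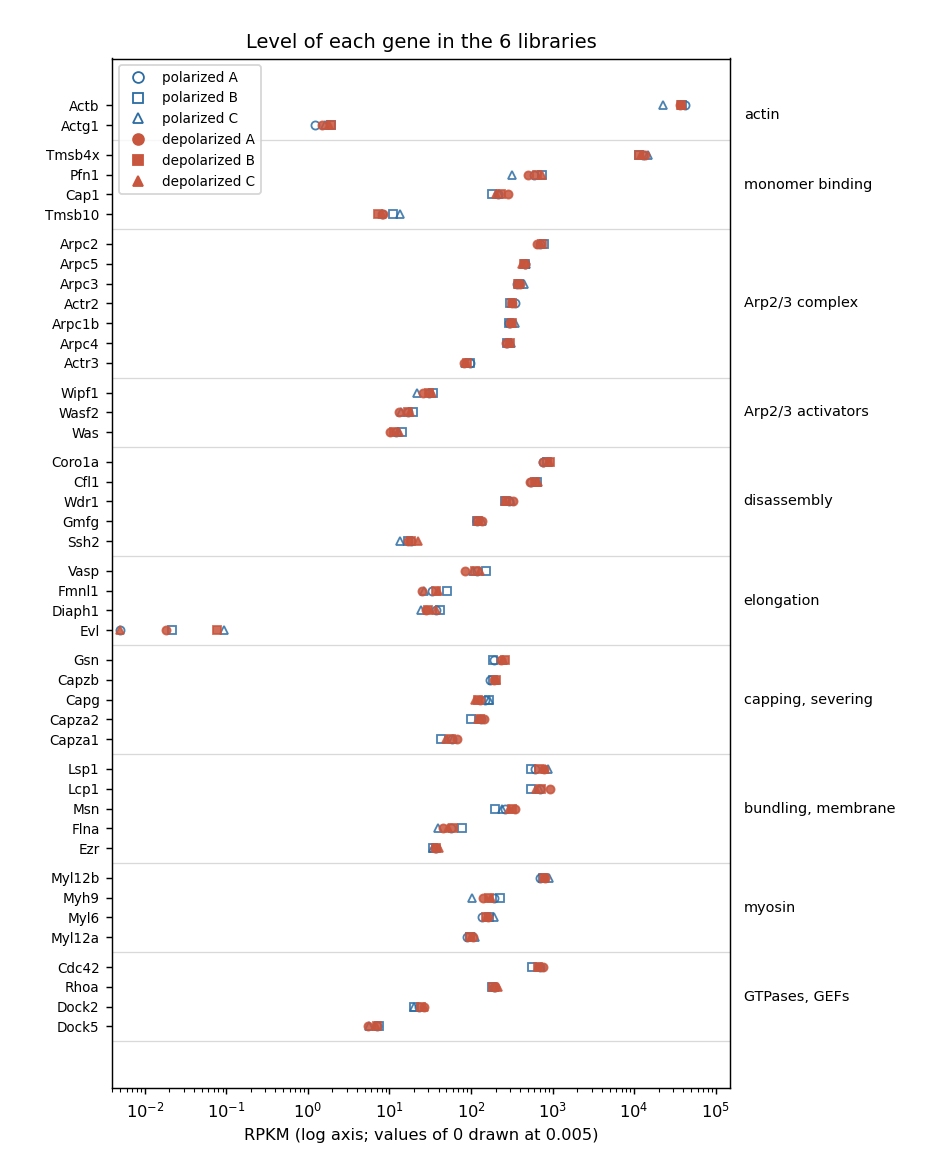
RPKM of each of the 43 genes (x axis, log scale) in the 6 libraries, grouped by role (y axis), with open blue symbols for polarized and filled red ones for depolarized libraries and the symbol shape for the pair. Genes spread from 0.0353 RPKM (Evl) to 35957 RPKM (Actb), while the 6 libraries of a gene mostly sit on top of each other.

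No subunit of the Arp2/3 complex was called. The 7 listed subunits averaged between 88.9 RPKM (Actr3) and 713 RPKM (Arpc2), and no subunit varied by more than 1.23-fold between its highest and lowest library in unscaled CPM. After TMM scaling the widest range was that of Arpc3, 1.48-fold. All 7 had fitted differences below 0, from -0.17 (Actr3) to -0.043 (Arpc1b), though Arpc1b was above 0 with library totals in place of TMM factors, as were Arpc1b, Arpc3 and Arpc4 without pair C. Arpc2, a subunit that holds the branch to the mother filament, was at 709, 777 and 699.7 RPKM in polarized A, B and C and at 649.9, 751 and 692 RPKM in depolarized A, B and C, and the groups overlapped. Its fitted difference was -0.13 ± 0.18 (SE). Actr3, which mimics an actin subunit in the nucleus of the branch, was at 96.4, 96.0 and 84.3 RPKM in polarized A, B and C and at 81.8, 88.0 and 87.0 RPKM in depolarized A, B and C. After TMM scaling its differences were -0.17, -0.16 and -0.18 (A, B, C), although the unscaled level of pair C was slightly higher in the depolarized library. The other subunits, Actr2, Arpc1b, Arpc3, Arpc4 and Arpc5, averaged 322, 310.4, 392, 287 and 449 RPKM. Arpc5 was 1046 ± 13.7 CPM with polarized and 998 ± 40.4 CPM with depolarized cells (SD, n = 3 each), with no overlap of the unscaled levels and a fitted difference of -0.14.

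The 3 listed activators of the complex were lower per length than its 7 listed subunits, with means of at most 29.4 RPKM against at least 88.9 RPKM. Other activators were not compared per length. Wipf1, which encodes the WASP-binding protein WIP, was at 30.7, 33.8 and 21.8 RPKM in polarized A, B and C and at 25.5, 31.0 and 33.7 RPKM in depolarized A, B and C, with a fitted difference of 0.0084. Polarized C was the lowest library for Wipf1. That held for 7 members (16.7%), a smaller share than the 36.1% of all genes tested. Was, the gene of the Wiskott-Aldrich syndrome protein, was at 11.9, 14.3 and 12.6 RPKM in polarized A, B and C and at 10.2, 11.4 and 13.2 RPKM in depolarized A, B and C. The edgeR adjusted p for Was was 1, at a fitted difference of -0.23 ± 0.19 (SE). The groups overlapped, and the unscaled levels of pair C went the other way from those of pairs A and B. Wasf2, which encodes WAVE2, averaged 16.3 RPKM with a difference of -0.14.

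No filament turnover gene was called. Coronin 1A (Coro1a), a coat protein of leukocyte actin, was the highest of the 5, at 756, 861 and 872 RPKM in polarized A, B and C and at 758, 927 and 913 RPKM in depolarized A, B and C. The order of libraries followed the pairs more than the groups, and the fitted difference was -0.0086 (interval -0.39 to 0.37). Cofilin 1 (Cfl1), which cuts aged filaments, averaged 604 RPKM and differed by -0.077. Wdr1, its cofactor, averaged 285 RPKM (-0.081) and Gmfg, which removes Arp2/3 branches, 125 RPKM (-0.055). Ssh2, a phosphatase that activates cofilin, was at 18.2, 16.7 and 13.5 RPKM in polarized A, B and C and at 16.6, 18.4 and 22.2 RPKM in depolarized A, B and C. Ssh2 was lowest in polarized C and highest in depolarized C, and edgeR gave it an adjusted p of 1 at a fitted difference of 0.17 ± 0.18 (SE).

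Of the elongation factors, Vasp, which keeps growing ends free of caps, was at 117, 154 and 105 RPKM in polarized A, B and C and at 84.8, 112 and 128 RPKM in depolarized A, B and C. The groups overlapped. Its log2 differences were -0.40, -0.49 and 0.055 (A, B, C), and edgeR gave an adjusted p of 0.954 at a fitted difference of -0.28 ± 0.18 (SE). The formin genes Diaph1 and Fmnl1, whose products elongate unbranched filaments, averaged 33.0 and 35.2 RPKM. Both followed the pattern of Vasp, with -0.33, -0.52 and 0.38 for Diaph1 and -0.34, -0.48 and 0.36 for Fmnl1 (A, B, C).

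Capg, which caps filament ends in response to calcium, had the lowest p of the list. Capg (ENSMUSG00000056737, chr6:72544391-72562983) was at 148, 167 and 168 RPKM in polarized A, B and C and at 128, 123 and 110.4 RPKM in depolarized A, B and C. All 3 depolarized libraries lay below all 3 polarized ones, 120.5 ± 9.21 against 161 ± 11.1 RPKM (SD, n = 3 each). The fitted difference was -0.49 ± 0.19 (SE), with an unadjusted p of 0.0190 and an edgeR adjusted p of 0.563, and the pairs gave -0.14, -0.48 and -0.83. Such a gap between groups was found for 4 of 42 members (Capg, Msn, Dock2 and Arpc5), or 9.52%, and for 10.4% of all genes tested. Gelsolin (Gsn), a calcium-dependent severing protein, was at 194, 188 and 249.7 RPKM in polarized A, B and C and at 230.5, 262 and 248 RPKM in depolarized A, B and C. It overlapped between groups, was higher in depolarized cells of pairs A and B and lower in pair C (0.31, 0.44 and -0.24), and had a fitted difference of 0.17. The capping protein subunit genes Capza1, Capza2 and Capzb averaged 55.7, 126 and 192 RPKM with differences of 0.040, 0.052 and 0.033.

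Tmsb10 lies on chromosome 6 near Capg (chr6:72957347-72958748) and had the third lowest p. It was at 8.11, 11.2 and 13.4 RPKM in polarized A, B and C and at 8.42, 7.23 and 8.11 RPKM in depolarized A, B and C, on 1350 counts in all. Depolarized libraries were even, and the polarized ones ranged above them in pairs B and C only. The fitted difference was -0.50 ± 0.24 (SE) with an edgeR adjusted p of 0.778. Early neutrophil markers were also lower in the depolarized library of every pair, and their part in the Capg and Tmsb10 values was not tested.

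Moesin (Msn), which ties actin to the plasma membrane, gave the largest positive difference. Msn (ENSMUSG00000031207, chrX:96096042-96168552) was at 263, 195 and 238 RPKM in polarized A, B and C and at 345, 320.1 and 296 RPKM in depolarized A, B and C. The depolarized libraries all lay above the polarized ones, 320.1 ± 24.6 against 232 ± 34.2 RPKM (SD, n = 3 each). The fitted difference was 0.40 ± 0.19 (SE), with an unadjusted p of 0.0459 and an edgeR adjusted p of 0.746, and the pairs gave 0.45, 0.67 and 0.084. The monocyte and macrophage markers Csf1r and Adgre1 were also higher in the depolarized library of every pair, while Ccr2, C1qa, C1qb, C1qc and Irf8 were lower, and their part in this value was not tested. Ezrin (Ezr), a close relative of moesin, averaged 36.5 RPKM, 7.57 times less, and differed by 0.046.

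The filament-binding proteins of leukocytes were abundant. Lsp1, a leukocyte-specific actin-binding protein gene, was at 611, 542 and 879 RPKM in polarized A, B and C and at 781, 688 and 814 RPKM in depolarized A, B and C. Polarized C was the highest and the groups overlapped, with a fitted difference of 0.13 and 0.42, 0.30 and -0.34 within the pairs. L-plastin (Lcp1), which bundles filaments and is named here after its values were seen, averaged 704 RPKM and gave 0.49, 0.39 and -0.35. Filamin A (Flna), which crosslinks filaments, averaged 55.2 RPKM and gave the opposite signs, -0.26, -0.41 and 0.21.

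Myosin II was represented by its heavy chain Myh9 and 3 light chains. The regulatory light chain gene Myl12b was at 707, 766 and 901 RPKM in polarized A, B and C and at 799, 778 and 784 RPKM in depolarized A, B and C. Depolarized libraries were nearly equal and lay inside the polarized range, and the fitted difference was -0.068 (interval -0.47 to 0.33). Myl12a averaged 100.1 RPKM, and its ratio to Myl12b stayed between 7.58 and 8.03 in Myl12b's favour in all libraries. The essential light chain gene Myl6 averaged 160.2 RPKM. Myh9 averaged 167 RPKM and moved apart from its light chains: it gave -0.40, -0.47 and 0.52 (A, B, C) where Myl12b gave 0.24, -0.016 and -0.43. All 4 fitted differences lay between -0.12 and -0.045, although Myl12a was above 0 with library totals in place of TMM factors, the light chains were above 0 without pair C, and Myh9 was above 0 without pair A or B.

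Among the GTPases and exchange factors, Cdc42, the GTPase that directs polarity and protrusion, was at 701, 567 and 724 RPKM in polarized A, B and C and at 763, 669 and 659.8 RPKM in depolarized A, B and C. The ranges overlapped and the fitted difference was 0.0088 (interval -0.39 to 0.41). Rhoa, the GTPase of rear contraction, averaged 194 RPKM and differed by 0.013. Dock2, the exchange factor that activates Rac in neutrophils, was at 22.9, 19.9 and 20.2 RPKM in polarized A, B and C and at 26.7, 24.6 and 26.2 RPKM in depolarized A, B and C. All depolarized libraries lay above the polarized ones, with differences of 0.28, 0.27 and 0.15, and edgeR gave an adjusted p of 1 at a fitted difference of 0.23 ± 0.17 (SE). Dock5, its relative, averaged 6.58 RPKM and differed by -0.14.

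**Figure D4:**
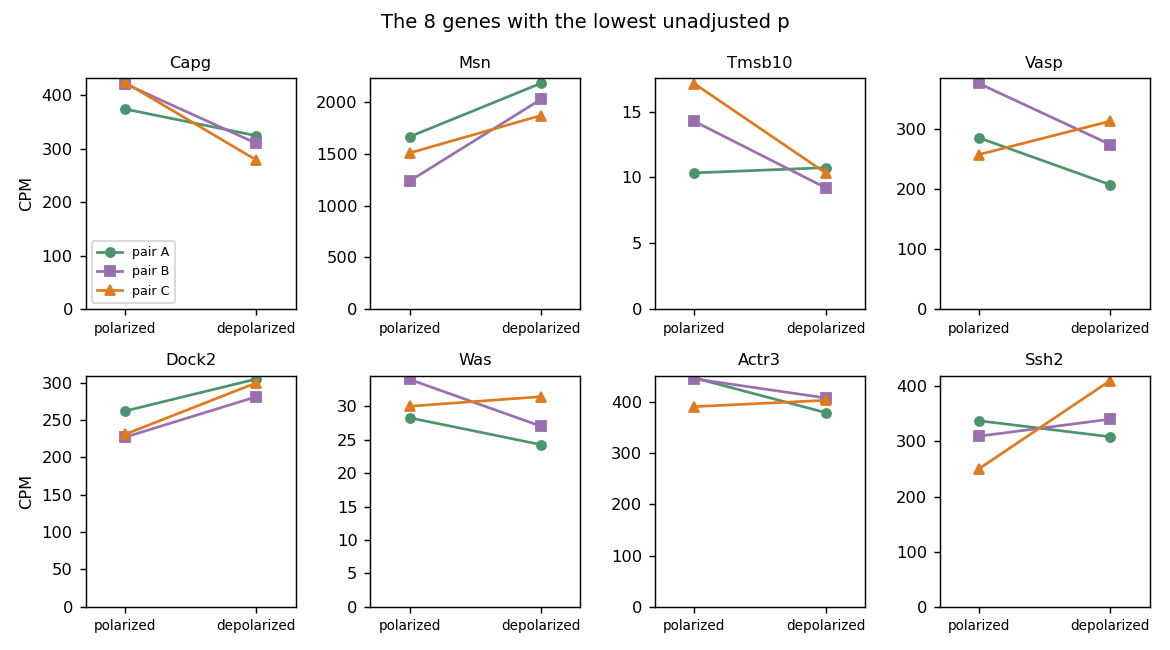
CPM in the polarized and depolarized library of each pair (joined by a line, y axis from 0) for the 8 genes with the lowest unadjusted p, before TMM scaling. In every pair Capg is lower and Msn and Dock2 higher in the depolarized library, 5 of the 8 (Tmsb10, Vasp, Was, Actr3 and Ssh2) differ in opposite directions in pairs A and C, and none of the 8 passed the adjusted test.

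The members divided by how pair C compared with pairs A and B. In pairs A and B, 10 genes were lower in depolarized cells while in pair C they were higher: Actb, Pfn1, Wasf2, Wipf1, Vasp, Diaph1, Fmnl1, Flna, Myh9 and Dock5. A further 11 were higher in pairs A and B and lower in pair C: Cap1, Arpc1b, Coro1a, Capza1, Capza2, Capzb, Gsn, Lcp1, Lsp1, Rhoa and Cdc42. Together they were 21 of 42 members (50%), against 38.5% of all genes tested and 54.4% of the 1589 abundant ones (mean log2 CPM of at least 6), to which 39 members belong. The members' share lay below that of the abundant genes. Pair A was opposite to B and C in 12 members (28.6%), against 23.0% of all and 18.6% of abundant genes: Actg1, Tmsb4x, Tmsb10, Arpc3, Arpc5, Cfl1, Wdr1, Gmfg, Ssh2, Myl6, Myl12a and Myl12b. Pair B was opposite in 2 (Arpc4 and Actr2), or 4.76%, against 13.5% of all and 4.59% of abundant genes. In 7 members (16.7%) all pairs had 1 sign, against 25% of all genes: Ezr, Msn and Dock2 were higher and Arpc2, Actr3, Was and Capg lower. Those higher were 7.14% of members, against 12.9% of all and 12.8% of abundant genes. Those lower were 9.52%, against 12.1% and 9.57%.

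Across the 42 members, differences in pair A and pair B had a Pearson r of 0.76, those in A and C of -0.54 and those in B and C of -0.15. Over the 1589 abundant genes the values were 0.69, -0.36 and 0.13. These describe genes within the same libraries and are not independent replicates, and the pairs share no library. Relative to polarized A and B, the 10 genes of the first set were lower in polarized C, with a median of -0.42 on the log2 scale. The 11 of the second were higher, with a median of 0.39. Depolarized C differed from depolarized A and B by medians of 0.25 and 0.0074. The sets were chosen by the signs of differences that contain these same libraries, so the directions of the medians follow in part from that choice. Polarized C also had the highest levels of the early neutrophil markers Mpo (146 CPM against 13.4 and 19.8 in polarized A and B), Elane (109 against 13.1 and 39.2) and Fcnb (34.2 against 4.66 and 8.46). Prtn3, Ctsg, Ms4a3, Ltf and Chil3 were also highest there. Camp, Ngp and Cebpe were instead highest in polarized B, as was the sum of the 11 markers (23298 against 17851 CPM in polarized C). Mitochondrial genes took 0.743% of the counts of polarized C and 0.699% of those of depolarized C, against 0.547% to 0.579% in the other 4 libraries. The part of these in the pattern was not tested. The TMM factor of polarized C, 0.876, was also the lowest, against 0.967 to 1.08. Low levels in polarized C were less common among members than among other genes. Before scaling, 7 members (16.7%) were lowest there, against 36.1% of all genes tested and 35.1% of abundant ones. By contrast, 12 members (28.6%) were highest there, against 10.9% and 14.5%. More members, 16, were lowest in polarized B. The SD over the 3 polarized libraries exceeded that over the depolarized ones for 35 of 42 members (83.3%), against 62.9% of all genes. The median SDs were 0.26 and 0.14 log2 units for the members, below the 0.32 and 0.25 of all genes tested. This share was not computed for abundant genes alone.

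**Figure D5:**
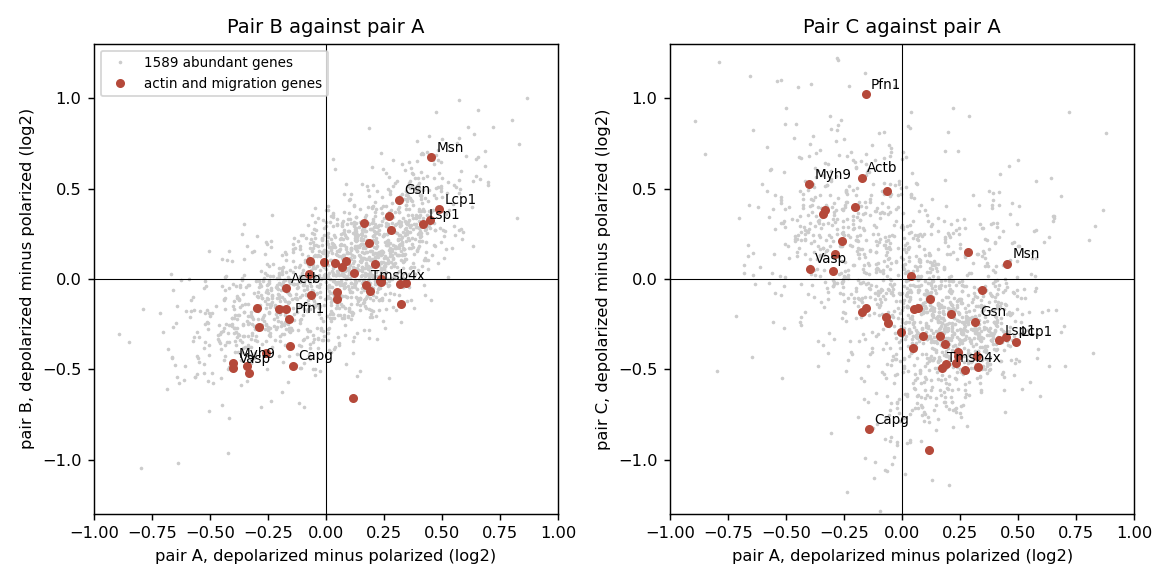
Difference between depolarized and polarized cells (log2, TMM-scaled CPM) in pair B (left) and pair C (right) against that in pair A (x axes), for the actin and migration genes (red) and 1589 abundant genes (grey). The red points run upward on the left (r = 0.76) and downward on the right (r = -0.54), as the grey ones do, and grey points beyond the axes are not drawn.

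Leaving out pair C changed the calls. With pairs A and B alone, 5 members were called higher and 6 lower by edgeR, 11.9% and 14.3% of 42, where 4.95% and 5.13% of all genes were. Those higher were Msn (0.56, edgeR adjusted p 3.27e-06), Lcp1 (0.44), Cap1 (0.39), Gsn (0.38) and Lsp1 (0.36). Those lower were Vasp (-0.45), Myh9 (-0.43), Diaph1 (-0.43), Fmnl1 (-0.41), Flna (-0.33) and Capg (-0.31, edgeR adjusted p 0.0412). Of the 11, 9 had the opposite sign in pair C (81.8%), against 59.3% of 1010 genes called that way that were also tested with all 3 pairs, and Msn and Capg were the exceptions. These calls rest on 2 pairs. Of the members, 39 are abundant (mean log2 CPM of at least 6), and these shares were not computed for abundant genes alone. Differences in pairs A and B correlated at 0.69 over the abundant genes and at 0.26 over all genes tested. Without pair A 0 members were called, beside 0.249% of genes higher and 0.737% lower, and without pair B also 0, beside 0.0895% and 0.358%, with 2 and 0 at an unadjusted p under 0.05.

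No other gene of the pathway was called. A list of 104 further regulators had 90 tested genes, of which 0 were called higher, 0 lower and 7 had an unadjusted p under 0.05, or 7.78% against 6.58% of all genes. Their median was 0.012, and 47 (52.2%) had pair C opposite to the others, against 38.5% of all and 54.4% of abundant genes. Both shares lay near the background. The 3 with the lowest p above 0 were Tagln2 (transgelin 2), at 41.96 ± 9.78 and 65.3 ± 10.9 CPM in polarized and depolarized cells (SD, n = 3 each), Abi3, at 1.46 ± 0.485 and 3.65 ± 2.12 CPM, and Swap70, at 9.54 ± 2.52 and 14.7 ± 1.43 CPM. Those below 0 were the formin gene Daam1, at 2.35 ± 0.732 and 1.202 ± 0.542 CPM, the cofilin relative Dstn, at 554 ± 46.7 and 421 ± 118 CPM, and the crosslinker Actn1, at 618 ± 104 and 497 ± 60.5 CPM. Their log2 differences were 0.58, 1.15, 0.58, -1.06, -0.50 and -0.38, each with 1 sign in all 3 pairs, and the edgeR adjusted p ran from 0.395 to 0.747.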

How the data were processed

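Per the file headers, the authors deposited raw counts, CPM and RPKM for 41388 genes in each of 6 libraries. Per the submitters' processing notes the tools were bcl2fastq, STAR 2.0.4b, Subread and featureCounts 1.45 with build GRCm38. The deposited CPM values equal the counts scaled to the library total, and the deposited RPKM values divide them by the listed gene length. Libraries were made with the Clontech SMARTer Ultra-Low kit, per the labels' protocols. No molecular identifiers are mentioned.

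Symbols came from the reference table. Counts were tested in R 4.3.3 with edgeR 4.0.16 on all genes kept by filterByExpr (9971, 99.9% of counts), with TMM factors, the pair as a block and Benjamini-Hochberg adjustment over all of them. The script was tested on simulated data. Standard errors are the fold change divided by the root of F. Pairing rests on the series' design text. Same-code libraries' deviations from their group means correlated at 0.075, 0.27 and 0.033 for pairs A, B and C, and different-code libraries at -0.22 to 0.13 (polarized C with depolarized A), above 2 of the 3 same-code values, so the correlations do not by themselves show the pairing. Alternatives used DESeq2 1.42.0, other scaling, filters, length or GC correction and each pair left out. Members, lists and tests were chosen with earlier results of these data known. Named with all values are the 8 members with the lowest p, the 6 with the highest RPKM and the highest of each role. Other members given by library or pair were chosen after their values were seen. Markers covered mature and early neutrophils and 7 other cell groups, and Ahsp was not analysed here. The planned protein comparison used coding bases instead.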

Additional observations from a re-analysis of the deposited data

How the results depend on the processing

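The count of 0 members called in either direction was kept under 9 alternatives that used all 3 pairs, including the fit with no replicate block (0 of 42, with 1 at an unadjusted p under 0.05), DESeq2, other scalings, robust fitting and correction for gene length or, chosen after seeing the data, GC content. With each pair left out, 0 to 5 members were called higher and 0 to 6 lower, the calls arising without pair C. Calls among all genes, 8 higher and 24 lower, moved more: to 0 and 0 with no replicate block, 16 and 23 with DESeq2, 0 and 6 with library totals only, 50 and 96 with no filter, 3 and 5 with the stricter filter of 5 CPM in 3 libraries, 0 and 8 with the length trend removed, 3 and 17 with the GC trend removed, and 9 to 500 and 36 to 518 without a pair. The cause was not tested. The members' median of -0.062 was 0.0060 with library totals and 0.061 without pair C. Their mean share of counts was 19.6% in polarized and 19.97% in depolarized libraries when the 10 most abundant other genes were left out of the total.

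Log2 fold changes changed sign in 34 of 503 recomputed member values, and 0 of these were called by edgeR on the changed side. With library totals only, values moved as follows: Arpc1b to 0.0241, Coro1a to 0.0590, Gmfg to 0.0122, Myl12a to 0.0225. Coro1a became 0.000217 with no filter, and Cdc42 -0.00526 with no replicate block and -0.00642 with the length trend removed. With a pair left out, the ranges that crossed 0 were Actb -0.11 to 0.26, Actg1 -0.042 to 0.16, Tmsb4x -0.26 to 0.068, Pfn1 -0.19 to 0.43, Arpc1b -0.11 to 0.093, Arpc3 -0.27 to 0.061, Arpc4 -0.15 to 0.044, Wipf1 -0.19 to 0.12, Coro1a -0.046 to 0.068, Wdr1 -0.24 to 0.11, Gmfg -0.20 to 0.12, Diaph1 -0.43 to 0.024, Fmnl1 -0.41 to 0.010, Capza1 -0.12 to 0.31, Capza2 -0.076 to 0.24, Capzb -0.054 to 0.15, Lsp1 -0.016 to 0.36, Myh9 -0.43 to 0.063, Myl6 -0.31 to 0.093, Myl12a -0.23 to 0.15, Myl12b -0.22 to 0.11, Rhoa -0.038 to 0.075 and Cdc42 -0.087 to 0.19. Actg1, Tmsb10 and Evl rest on the fewest counts of the list.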
